A study of Drosophila melanogaster with 16 samples.

Results

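Neuroblasts cultured for 5 h were compared with neuroblasts cultured for 3 h. Type I neuroblasts are neural stem cells, here from the larval brain of Drosophila. The libraries were chosen by the age in the names of the raw count files, which matches the age in the sample titles: 3 libraries of 5 h and 3 of 3 h, so 6 of the 16 libraries of the series. Both groups came from wandering larvae that carried UAS-dcr2, ase-GAL4 and UAS-stinger::GFP, which the labels call wild type. The driver ase-GAL4 is active in type I neuroblasts and gives them a nuclear GFP, and by the labels it also drives the Dicer-2 transgene at every age. The Dcr-2 counts, given below, differed widely between the ages, and whether the flies of both ages had the same genotype was not tested. The cells were sorted by fluorescence from brains, cultured, and sorted again to part the neuroblasts from the ganglion mother cells (GMCs) they had produced. The series also holds neuroblasts of 1.5 h and GMCs of 1.5, 3 and 5 h, which are used here only to fit the spread and for comparison. By the file names, the 5 h libraries were all read on one flow cell and the 3 h libraries all on another. Age and flow cell coincide, so every difference given here cannot be told apart from a difference between sequencing runs. Whether replicates are separate cultures is not labelled. The p-values therefore rest on the spread among libraries, and this may be technical.

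A neuroblast divides asymmetrically: the large daughter stays a stem cell and the small one, the GMC, divides again into neurons or glia. Polarity proteins at one pole and fate determinants at the other set this up, and Notch signalling with transcription factors such as Deadpan and Klumpfuss holds the large daughter in its stem cell state. Over larval life neuroblasts also change what they produce, by a temporal programme in which the RNA-binding proteins Imp and Syncrip oppose each other, and the steroid hormone ecdysone is known to advance that programme.

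The counts assigned to genes came to 7354674, 9479783 and 9090048 in the 5 h libraries, against 8160101, 10463424 and 11378787 in the 3 h libraries. Stem cell genes were present in all 6 libraries. The driver's own gene, ase (FBgn0000137, X 460747 to 463176 in release 6 coordinates, as are all positions here), a proneural factor that marks type I neuroblasts, stood at 350.4, 482 and 475 CPM in 5 h neuroblasts, against 375, 267 and 301 CPM in 3 h neuroblasts. The summed level of 8 markers of the type II lineage, a different class of neuroblast, was 105 to 118 CPM at 5 h and 83.0 to 98.3 CPM at 3 h. The sum over 24 neuron markers was 856, 1387 and 1770 CPM at 5 h against 989.5, 1164 and 1151 CPM at 3 h, with at most 1 marker at 0 in a library. Over 17 glia markers it was 627 to 759 CPM at 5 h and 706 to 844 CPM at 3 h, with at most 1 marker at 0. Over 16 hemocyte and fat body markers it was 167 to 200.1 CPM at 5 h and 175 to 286 CPM at 3 h, with 1 to 3 markers at 0. Over 8 muscle and trachea markers it was 6.27 to 51.4 CPM at 5 h and 24.6 to 46.7 CPM at 3 h. CPM here are counts relative to a library size scaled by TMM.

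Both first replicates stood apart from the other libraries of their group. Replicates 2 and 3 of 5 h had a Spearman correlation of 0.985 across genes, and replicates 2 and 3 of 3 h one of 0.988, whereas replicate 1 of 5 h reached 0.949 and 0.948 with its group. For replicate 1 of 3 h these were 0.920 and 0.919. Replicate 1 of 5 h was closer to the 3 h libraries 2 and 3 (0.958 and 0.955) than to the 5 h libraries by this rank measure. By the chi-square per degree of freedom of the counts it was closer to its own group (66.8 and 51.4) than to these 3 h libraries (157 and 153). On the first principal component of the 6 libraries, which held 57.9% of the variance, replicate 1 of 5 h lay at -0.17, between the other 5 h libraries (-35.1 and -35.2) and the 3 h libraries (15.02 to 36.15). Reads in no annotated gene were highest in these same libraries, 15.6% in replicate 1 of 5 h and 17.8% in replicate 1 of 3 h, against 11.8% to 13.5% in the other 4. Their part in the results was not tested, so counts are also given without them.

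Of 10913 genes tested, 1469 differed between 5 h and 3 h neuroblasts, which is 13.5% (edgeR quasi-likelihood test on all 16 libraries, Benjamini-Hochberg adjusted p under 0.05). Of these, 1132 were higher at 5 h (10.4% of the genes tested) and 337 were lower (3.09%). For 2675 genes (24.5%) the libraries of the 2 groups did not overlap. Genes named for the largest changes were picked only among these, so their lack of overlap is no added support. The median log2 fold change over all genes tested was 0.00065, so under this scaling as many genes lay above 0 as below it. The largest log2 fold change among called genes averaging at least 20 CPM was that of CR40469, a non-coding RNA (FBgn0058469, X 122493 to 122706), which stood at 640.1, 692 and 639 CPM in 5 h neuroblasts, against 0.791, 0.234 and 0.0718 CPM in 3 h neuroblasts. Its log2 fold change was 10.98 ± 0.50 (SE; edgeR adjusted p = 1.72e-09), and it averaged 0.135 ± 0.0814 CPM in the 1.5 h neuroblasts (SD, n = 3).

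The number of calls depended on which libraries were in the fit. A fit of the 6 libraries alone called 28 genes (0.292% of the 9581 tested in it), 11 higher and 17 lower, where the fit that borrows the spread of all 16 libraries called 1469. These 28 were called under each of the 15 alternatives tried, and they include Eip75B, Hr4, cas, klu and CR40469 among those higher at 5 h, and chinmo, Pdp1, Trf2, scyl, ps, Unr, Hsromega, CR43283, Dcr-2 and CG31817 among those lower. No other gene named here as changed was called in the fit of the 6 libraries alone. Without replicate 1 of 5 h the count was 3588, 2025 higher and 1563 lower. Without both first replicates, an alternative chosen after seeing the data, it was 3795, 2062 higher and 1733 lower. Without replicate 2 of 5 h it was 805, without replicate 3 of 5 h 575, and without replicate 2 of 3 h 914. No gene called in the main test had the opposite sign under any of the alternatives.

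**Figure D1:**
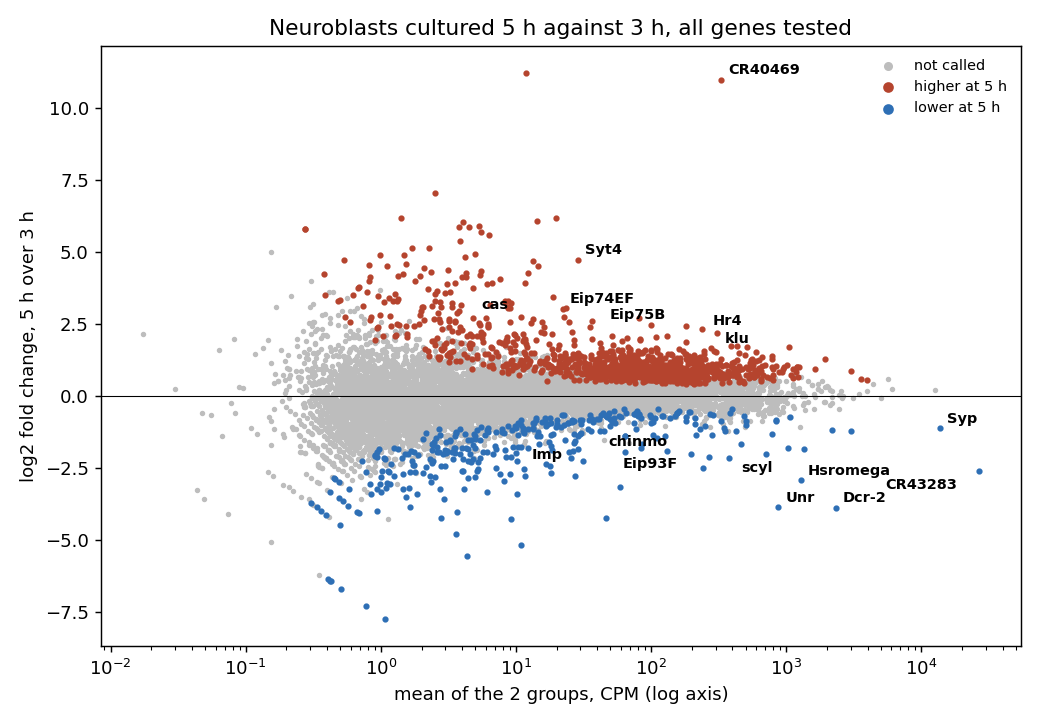
Each point is a gene tested, with its mean level in the 2 groups in CPM on a log axis and its log2 fold change of 5 h over 3 h neuroblasts on the vertical axis. The 1132 genes called higher at 5 h are red and the 337 called lower are blue; CR40469 stands at the top, and Dcr-2 and Unr are among the lowest of the abundant genes.

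Higher calls were concentrated among long genes. The genes were split by exonic length into 4 classes of about equal number. In the longest class (3385 bases and more), 730 genes were higher and 90 lower at 5 h. In the shortest class (1183 bases or less) 36 were higher and 76 lower. The median log2 fold change ran through -0.25, -0.13, 0.08 and 0.40 from the shortest class to the longest. The trend was also present within each age. Each library was set against the mean of the 3 h libraries. The median of the longest class minus that of the shortest was 0.22, 0.75 and 0.86 in the 5 h libraries, against -0.42, 0.19 and 0.29 in the 3 h libraries. When a smooth trend with length was taken out of each library, 1449 genes were called, 1024 higher (9.38%) and 425 lower (3.89%), and 1102 of the 1469 first calls were among them. Of the genes described below, Blimp-1, Hsc70-3, elav, RpLP0, RpL13 and TrpRS lost their calls with the trend removed (edgeR adjusted p = 0.0849, 0.142, 0.134, 0.0636, 0.0829 and 0.066), and EcR passed as lower (0.0375). The share of higher calls was 27.1% in the longest class and 1.33% in the shortest, so the counts of lists made of long genes are also given with the trend removed. The cause of this trend was not tested.

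**Figure D2:**
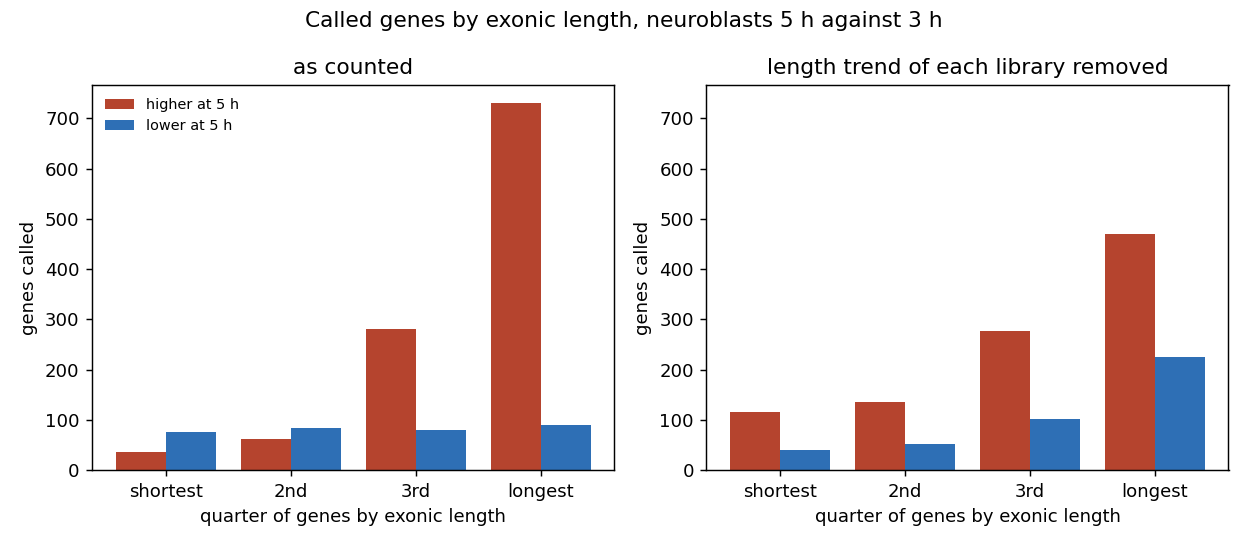
Bars count the genes called higher (red) and lower (blue) at 5 h in 4 classes of exonic length, with the counts as deposited on the left and after removal of each library's length trend on the right. The longest class holds 730 higher genes on the left and 469 on the right, the shortest 36 and 116.

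Genes that respond to ecdysone changed in both directions. Of 21 such genes tested, 6 were higher at 5 h and 3 were lower, 28.6% and 14.3% against 10.4% and 3.09% of all genes, with a list median of 0.32. These are long genes (median exonic length 7704 bases), and with the length trend removed 5 were higher and 5 lower (23.8% each, against 9.38% and 3.89% of all genes), with a median of -0.000104. Eip75B (FBgn0000568, 3L 17950953 to 18064696), a nuclear receptor that ecdysone induces early, stood at 190.1, 314 and 409.6 CPM in 5 h neuroblasts, against 77.8, 41.5 and 49.9 CPM in 3 h neuroblasts. Every 5 h library lay above every 3 h library, and the log2 fold change was 2.44 ± 0.34 (SE; edgeR adjusted p = 0.000726). Eip74EF (FBgn0000567, 3L 17558672 to 17619325), an ETS factor of the same early class, stood at 14.9, 37.6 and 65.8 CPM in 5 h neuroblasts, against 4.63, 5.14 and 4.67 CPM in 3 h neuroblasts. Eip74EF had a log2 fold change of 3.03 ± 0.54 (SE; edgeR adjusted p = 0.00256). Hr4 (FBgn0264562, X 1941940 to 2007956), a nuclear receptor that acts later in the hormone's cascade, stood at 266, 389 and 532 CPM in 5 h neuroblasts, against 70.7, 93.8 and 70.5 CPM in 3 h neuroblasts. For Hr4 the log2 fold change was 2.34 ± 0.33 (SE; edgeR adjusted p = 0.000726). In all 3 genes replicate 3 of 5 h was the highest and replicate 1 of 5 h the lowest of its group.

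The nuclear receptor Hr39 was also higher, at 82.5, 159.9 and 196 CPM at 5 h against 49, 56.1 and 67.8 CPM at 3 h. For Hr39 the log2 fold change was 1.34 ± 0.27 (SE; edgeR adjusted p = 0.00479). Sox14, a HMG-box factor induced by ecdysone, was higher at 10.1, 16.9 and 20.2 CPM at 5 h against 6.55, 7.41 and 6.97 CPM at 3 h. Sox14 had a log2 fold change of 1.17 ± 0.29 (SE; edgeR adjusted p = 0.0151). Sox14 missed the threshold without replicate 2 (edgeR adjusted p = 0.0507) or replicate 3 of 5 h (0.0939). Blimp-1, a zinc finger repressor that times the response, had the last of the 6 higher calls, and this rested on 1 library: it stood at 1.15, 1.99 and 13.2 CPM at 5 h against 1.02, 1.01 and 0.647 CPM at 3 h. Its log2 fold change was 2.61 (edgeR adjusted p = 0.0457), and 0.82 without replicate 3 of 5 h (edgeR adjusted p = 0.587). It also missed the threshold without any 1 of the 3 h libraries (edgeR adjusted p = 0.092 to 0.126).

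The 3 genes that fell were Eip93F, ftz-f1 and Hr3. Eip93F (FBgn0264490, 3R 21949114 to 22014539), a helix-turn-helix factor of the late response that also acts in neuroblasts, stood at 48.4, 161 and 93.6 CPM in 5 h neuroblasts, against 369.6, 467 and 476 CPM in 3 h neuroblasts, and its log2 fold change was -2.12 ± 0.35 (SE; edgeR adjusted p = 0.00172). The nuclear receptor ftz-f1, which acts in the prepupa, stood at 73.1, 98.6 and 66.8 CPM at 5 h against 118, 149 and 139 CPM at 3 h. For ftz-f1 the log2 fold change was -0.77 ± 0.19 (SE; edgeR adjusted p = 0.0149). It missed the threshold without replicate 3 of 5 h (edgeR adjusted p = 0.0911) or replicate 2 of 3 h (0.0559). Hr3, a nuclear receptor that activates ftz-f1, stood at 4.58, 0.418 and 2.44 CPM at 5 h against 6.21, 13.5 and 9.2 CPM at 3 h. Hr3 had a log2 fold change of -1.96 ± 0.56 (SE; edgeR adjusted p = 0.0288). Hr3 lost its call without replicate 2 or 3 of 5 h (edgeR adjusted p = 0.0716 and 0.0954) and without replicate 2 or 3 of 3 h (0.101 and 0.0512). Another annotated gene overlaps 82.7% of the exonic length of Hr3 and 29.4% of that of ftz-f1. The receptor gene EcR itself stood at 51.1, 66.9 and 57.6 CPM at 5 h against 55.9, 70.2 and 73.9 CPM at 3 h, and the groups overlapped. For EcR the log2 fold change was -0.19 ± 0.17 (SE; edgeR adjusted p = 0.497). The early factor br stood at 294, 494 and 847 CPM at 5 h against 227, 353 and 351 CPM at 3 h. br had a log2 fold change of 0.81 ± 0.32 (SE; edgeR adjusted p = 0.108). Without replicate 1 of 5 h br passed (log2 fold change 1.11, edgeR adjusted p = 0.0081). Eip75B and Hr4 kept their calls under all 15 alternatives.

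**Figure D3:**
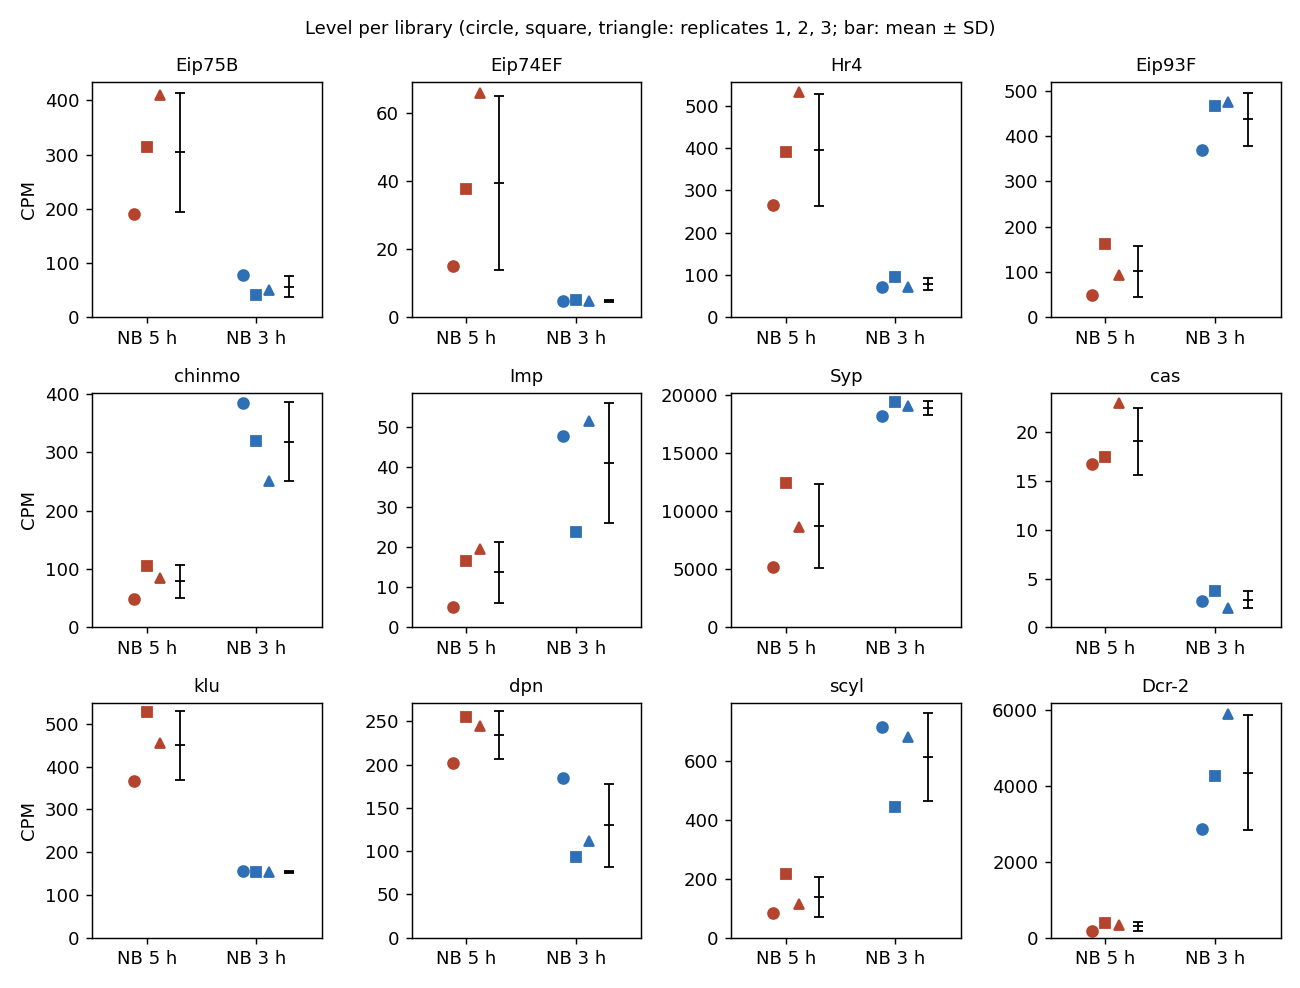
Levels in CPM of 12 genes in each library of 5 h (red, left) and 3 h neuroblasts (blue, right); circles, squares and triangles are replicates 1, 2 and 3, and the bars beside them give the mean and SD (n = 3 each). The groups do not overlap in any of the 12 panels, as for 24.5% of all genes tested, and dpn and Imp come closest to overlap. Some of these genes, such as Eip74EF, were named by a rule that asked for no overlap.

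Temporal patterning genes also changed in both directions. Of 15 tested, 3 were higher at 5 h (cas, svp and D) and 4 lower (chinmo, Eip93F, Imp and Syp), 20.0% and 26.7% of them against 10.4% and 3.09% of all genes, with a list median of -0.02. The counts were again 3 and 4 with the length trend removed. The zinc finger factor chinmo (FBgn0086758, 2L 1651258 to 1704682), which marks early-born cells, stood at 48.7, 104.4 and 84.8 CPM in 5 h neuroblasts, against 384, 319.9 and 250.3 CPM in 3 h neuroblasts. It was lower in all 3 libraries of 5 h. chinmo had a log2 fold change of -2.004 ± 0.28 (SE; edgeR adjusted p = 0.000725). It averaged 279 ± 41.8 CPM in neuroblasts of 1.5 h (SD, n = 3). Imp, the RNA-binding protein of young neuroblasts, stood at 5.1, 16.6 and 19.6 CPM in 5 h neuroblasts, against 47.8, 23.8 and 51.5 CPM in 3 h neuroblasts. For Imp the log2 fold change was -1.57 ± 0.42 (SE; edgeR adjusted p = 0.0215). It lost its call without replicate 1 of 3 h (edgeR adjusted p = 0.0599) or replicate 3 of 3 h (0.0661). Syp, the RNA-binding protein of old neuroblasts and the most abundant of these genes by counts, stood at 5161, 12382 and 8619 CPM in 5 h neuroblasts, against 18168, 19368 and 19039 CPM in 3 h neuroblasts. Syp had a log2 fold change of -1.11 ± 0.32 (SE; edgeR adjusted p = 0.0281). Syp lost its call without replicate 3 of 5 h (edgeR adjusted p = 0.0997), replicate 2 of 3 h (0.0676) or replicate 3 of 3 h (0.0561). Imp and Syp, which oppose each other in development, were both lower in every 5 h library than in any 3 h library. The groups did not overlap for 24.5% of all genes tested.

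Castor, cas (FBgn0004878, 3R 5712975 to 5716805), a zinc finger factor of the early temporal series, stood at 16.8, 17.4 and 23 CPM in 5 h neuroblasts, against 2.71, 3.74 and 2.01 CPM in 3 h neuroblasts. Its levels were low and its groups did not overlap, as for 24.5% of all genes tested. GMCs held far more cas, 3233 and 3095 CPM at 5 h against 77 and 85.4 CPM at 3 h. The part of GMC RNA in the neuroblast values was not tested. For cas the log2 fold change was 2.76 ± 0.41 (SE; edgeR adjusted p = 0.000867). The orphan nuclear receptor svp (FBgn0003651, 3R 12258737 to 12302785), which acts as a switch in that series, stood at 105, 148 and 152 CPM in 5 h neuroblasts, against 48.5, 59.1 and 60.1 CPM in 3 h neuroblasts. svp had a log2 fold change of 1.27 ± 0.19 (SE; edgeR adjusted p = 0.00104). The Sox factor D stood at 22.2, 47.1 and 44.9 CPM at 5 h against 18.6, 17.9 and 21.1 CPM at 3 h. For D the log2 fold change was 0.99 ± 0.24 (SE; edgeR adjusted p = 0.0123). D lost its call without replicate 2 or replicate 3 of 5 h (edgeR adjusted p = 0.0657 and 0.0695).

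Among 16 genes of neuroblast identity, 5 were higher at 5 h and 1 was lower, with a list median of 0.45. The shares were 31.3% and 6.25% against 10.4% and 3.09% of all genes, and the counts were the same with the length trend removed. The higher ones were klu, svp, CycE, mira and dpn, and the lower one was Syp. In GMCs, read on the same flow cells, 11 of the 16 were higher at 5 h and 1 lower. Over all genes 17.2% and 12.8% were, and the list median in GMCs was 1.04. The change differed between the cell types for 6 of the 16, and for 4.05% of all genes. The lists of this report share members, so their counts are not separate results. Here svp and Syp are also temporal patterning genes, klu and dpn also Notch targets, and mira also a gene of asymmetric division. The zinc finger factor klu (FBgn0013469, 3L 10981171 to 11009188), which supports self-renewal, stood at 367, 528 and 454 CPM in 5 h neuroblasts, against 157, 153 and 154 CPM in 3 h neuroblasts. For klu the log2 fold change was 1.54 ± 0.20 (SE; edgeR adjusted p = 0.000514). The 3 h libraries lay close together, and the 5 h libraries lay well above them. The bHLH repressor dpn stood at 202, 255 and 245 CPM in 5 h neuroblasts, against 184, 93.7 and 112 CPM in 3 h neuroblasts, and its log2 fold change was 0.85 ± 0.24 (SE; edgeR adjusted p = 0.0274). That call was lost without replicate 2 or 3 of 5 h (edgeR adjusted p = 0.0892 and 0.0922) and without replicate 2 or 3 of 3 h (0.110 and 0.089), and 59.3% of the exonic length of dpn overlaps another annotated gene. The adaptor mira, which carries fate determinants into the GMC, stood at 1350, 1762 and 1388 CPM in 5 h neuroblasts, against 951, 937 and 979.6 CPM in 3 h neuroblasts. mira had a log2 fold change of 0.65 ± 0.17 (SE; edgeR adjusted p = 0.0189). It lost its call without replicate 2 of 5 h (edgeR adjusted p = 0.0976) or replicate 2 of 3 h (0.063). Cyclin E, CycE, stood at 662, 1287 and 1205 CPM in 5 h neuroblasts, against 485, 477 and 596 CPM in 3 h neuroblasts. For CycE the log2 fold change was 1.02 ± 0.25 (SE; edgeR adjusted p = 0.014). CycE lost its call without replicate 2 or 3 of 5 h (edgeR adjusted p = 0.0691 and 0.0692) or replicate 2 of 3 h (0.0552). The snail-family factor wor stood at 176, 265 and 219 CPM at 5 h against 228, 185 and 230.3 CPM at 3 h, and the groups overlapped. wor had a log2 fold change of 0.04 ± 0.17 (SE; edgeR adjusted p = 0.912). The driver's gene ase was not called. For ase the log2 fold change was 0.47 ± 0.18 (SE; edgeR adjusted p = 0.0892). The gene ase passed without replicate 1 of 5 h (edgeR adjusted p = 0.0152) or replicate 1 of 3 h (0.042). The summed level of the list, most of which is Syp, was 9243, 18571 and 13864 CPM at 5 h against 21438, 22409 and 22466 CPM at 3 h.

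Of 20 genes of the Notch pathway, 6 were higher at 5 h and 0 were lower, 30% against 10.4% of all genes for the higher ones, with a list median of 0.25. At an unadjusted edgeR p under 0.05 (18.5% of all genes higher and 9.40% lower) and by DESeq2 (12% and 6.06%) 0 were lower. With the length trend removed 5 were higher (25%) and 1 lower (5%), against 9.38% and 3.89% of all genes. Without both first replicates 7 were higher and 1 lower, where 19.2% and 16.1% of all genes were. Without replicate 3 of 5 h, 3 were higher (15%) and 0 lower, against 4.16% and 1.11%. The transmembrane protein spdo (FBgn0260440, 3R 30476684 to 30478849), needed for Notch signalling between unequal daughters, stood at 129.8, 231 and 230.3 CPM in 5 h neuroblasts, against 86.9, 81.8 and 109.9 CPM in 3 h neuroblasts. spdo had a log2 fold change of 1.09 ± 0.20 (SE; edgeR adjusted p = 0.00346). The receptor N itself (FBgn0004647, X 3134870 to 3172221) stood at 456, 722 and 567 CPM in 5 h neuroblasts, against 251, 346 and 345 CPM in 3 h neuroblasts. For N the log2 fold change was 0.89 ± 0.23 (SE; edgeR adjusted p = 0.0181). The call of N was lost without replicate 2 of 5 h (edgeR adjusted p = 0.0911), replicate 3 of 5 h (0.0542) or replicate 1 of 3 h (0.0638). The inhibitor numb, which the GMC inherits, stood at 575, 691 and 700.0 CPM at 5 h against 395, 508 and 545 CPM at 3 h. numb had a log2 fold change of 0.44 ± 0.21 (SE; edgeR adjusted p = 0.183). Of 12 Notch target genes tested, 2 were higher (klu and dpn; 16.7%, against 10.4% of all genes) and 0 were lower (1 at an unadjusted edgeR p under 0.05, 0 by DESeq2). The bHLH target E(spl)mgamma-HLH stood at 56, 85.3 and 76.6 CPM at 5 h against 119, 42.1 and 64.4 CPM at 3 h, and the groups overlapped. For E(spl)mgamma-HLH the log2 fold change was -0.04 ± 0.30 (SE; edgeR adjusted p = 0.947).

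Of 21 genes of asymmetric division tested, 6 were higher (28.6%, against 10.4% of all genes) and 0 were lower, with a list median of 0.45. At an unadjusted edgeR p under 0.05 or by DESeq2 0 were lower as well, and with the length trend removed the counts were again 6 and 0, against 9.38% higher over all genes. The spindle orientation protein pins (FBgn0040080, 3R 27582840 to 27586376) stood at 165, 183 and 215 CPM in 5 h neuroblasts, against 96.6, 103 and 104.3 CPM in 3 h neuroblasts. pins had a log2 fold change of 0.89 ± 0.14 (SE; edgeR adjusted p = 0.0012). The cortical scaffold scrib stood at 649.7, 908 and 936 CPM in 5 h neuroblasts, against 221, 411 and 443 CPM in 3 h neuroblasts. scrib had a log2 fold change of 1.21 ± 0.27 (SE; edgeR adjusted p = 0.00793). The translational repressor brat (FBgn0010300, 2L 19133816 to 19179758), which is passed to the GMC and ends self-renewal there, stood at 1805, 2847 and 3620 CPM in 5 h neuroblasts, against 941, 1208 and 1219 CPM in 3 h neuroblasts. Its log2 fold change was 1.30 ± 0.24 (SE; edgeR adjusted p = 0.00341).

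Of 12 GMC fate factors tested, 4 were higher at 5 h and 1 was lower, with a list median of 0.64. The shares were 33.3% and 8.33% against 10.4% and 3.09% of all genes, and the counts were again 4 and 1 with the length trend removed (median 0.44). The zinc finger factor nerfin-1 (FBgn0028999, 3L 909112 to 912319), which keeps young neurons differentiated, stood at 48.2, 40.1 and 99.7 CPM in 5 h neuroblasts, against 8.14, 14.7 and 7.76 CPM in 3 h neuroblasts. For nerfin-1 the log2 fold change was 2.61 ± 0.39 (SE; edgeR adjusted p = 0.000849). The proneural-type bHLH factor tap (FBgn0015550, 3L 17359682 to 17361811) stood at 120.4, 162 and 157 CPM in 5 h neuroblasts, against 68.7, 56.3 and 53.9 CPM in 3 h neuroblasts. For tap the log2 fold change was 1.30 ± 0.15 (SE; edgeR adjusted p = 0.000237). In GMCs of the same ages these genes were far more abundant. There nerfin-1 stood at 3272 and 6066 CPM in 5 h GMCs, against 979 and 1072 CPM in 3 h GMCs. For tap the values were 1270 and 1213 CPM in 5 h GMCs, against 356 and 379.8 CPM in 3 h GMCs. The homeodomain factor pros, which enters the GMC nucleus, stood at 486, 855 and 1012 CPM at 5 h against 460.2, 494 and 533 CPM at 3 h and was not called. pros had a log2 fold change of 0.66 ± 0.25 (SE; edgeR adjusted p = 0.0961). Without replicate 1 of 5 h its edgeR adjusted p was 0.0062. The summed level of all 16 factors was 4373, 6511 and 7188 CPM at 5 h against 4111, 4205 and 4272 CPM at 3 h. Most of the difference between the ages in this sum lay in 1 member, brat. It held 1805, 2847 and 3620 CPM at 5 h against 941, 1208 and 1219 CPM at 3 h. In bulk RNA, more cells of another type and more RNA per cell cannot be told apart.

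Some genes of neurons were higher in neuroblasts of 5 h. Of 24 neuron markers tested, 11 were higher at 5 h and 1 was lower, 45.8% and 4.17% against 10.4% and 3.09% of all genes, with a list median of 0.73. Of 32 genes of axon guidance and adhesion, 11 were higher and 0 lower (0 also at an unadjusted edgeR p under 0.05 and by DESeq2), with a list median of 0.84, a share of 34.4% against 10.4% of all genes. Both lists are made of long genes. With the length trend removed, 7 neuron markers were higher and 4 lower (29.2% and 16.7%, median 0.37), and 7 guidance genes were higher and 1 lower (21.9% and 3.13%, median 0.46), against 9.38% and 3.89% of all genes. The vesicle protein Syt4 (FBgn0028400, 3R 7266065 to 7270809) stood at 8.01, 29.3 and 128 CPM in 5 h neuroblasts, against 0.791, 3.12 and 2.08 CPM in 3 h neuroblasts. Replicate 3 was the highest and replicate 1 the lowest of the 5 h libraries, all 3 above those of 3 h, and the log2 fold change was 4.73 ± 0.82 (SE; edgeR adjusted p = 0.00241). The acetylcholine transporter VAChT stood at 6.04, 12.1 and 66 CPM at 5 h against 0.904, 1.72 and 1.01 CPM at 3 h. For VAChT the log2 fold change was 4.51 ± 0.86 (SE; edgeR adjusted p = 0.0038). Gad1, which makes GABA, stood at 2.5, 1.88 and 13.1 CPM at 5 h against 0.226, 0.39 and 0.503 CPM at 3 h. Gad1 had a log2 fold change of 3.89 ± 0.78 (SE; edgeR adjusted p = 0.00485). The guidance receptor robo3 stood at 1.77, 2.61 and 19.8 CPM at 5 h against 0.113, 0.078 and 0.144 CPM at 3 h. For robo3 the log2 fold change was 6.05 ± 1.05 (SE; edgeR adjusted p = 0.00241). The axonal kinesin unc-104 stood at 56.4, 121 and 332 CPM at 5 h against 18.5, 34.9 and 39.5 CPM at 3 h. unc-104 had a log2 fold change of 2.45 ± 0.52 (SE; edgeR adjusted p = 0.00663). In each of these 5 genes replicate 3 of 5 h was the highest library by a wide margin.

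Without replicate 3 of 5 h, 5 of the 24 neuron markers (20.8%) and 5 of the 32 guidance genes (15.6%) were called higher, against 4.16% of all genes, where the calls of higher genes fell to 454. The translation elongation factor Ef1alpha100E, which showed the same order of libraries with 21.2, 30.6 and 125 CPM at 5 h against 14, 9.59 and 10.5 CPM at 3 h, was called too. For Ef1alpha100E the log2 fold change was 2.38 ± 0.58 (SE; edgeR adjusted p = 0.0132). It lost its call without replicate 3 of 5 h (log2 fold change 1.20, edgeR adjusted p = 0.135) or replicate 2 of 3 h (edgeR adjusted p = 0.0526). The neuronal RNA-binding protein elav stood at 303, 442 and 534 CPM at 5 h against 209, 267 and 279 CPM at 3 h. elav had a log2 fold change of 0.76 ± 0.22 (SE; edgeR adjusted p = 0.0319). The call of elav was lost without replicate 2 or 3 of 5 h (edgeR adjusted p = 0.0898 and 0.185) and without replicate 1 or 2 of 3 h (0.0975 and 0.0683), and 34.2% of its exonic length overlaps another annotated gene. With the length trend removed its log2 fold change was 0.37. The part of cells other than neuroblasts in these values was not tested. In GMCs the sum of the 24 neuron markers was 6763 and 7654 CPM at 5 h and 2545 and 2870 CPM at 3 h. At 5 h most of that sum was elav. Without elav it was 1466 and 2519 CPM in 5 h GMCs, against 1621 and 1797 CPM in 3 h GMCs. In neuroblasts the sum without elav was 553, 946 and 1236 CPM at 5 h, against 780, 898 and 872 CPM at 3 h. Replicate 1 of 5 h thus lay below every 3 h library in this sum.

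Markers of glia, of muscle and trachea and of the type II lineage gave 0 calls with all libraries and some without both first replicates. Of 16 glia markers tested, 0 were called by edgeR in either direction. Of 8 muscle and trachea markers and 8 type II lineage markers 0 were called as well. Over all genes 10.4% were higher and 3.09% lower, and lists of 8 are too short to tell 0 calls from these shares. At an unadjusted edgeR p under 0.05, 1 glia marker was higher and 1 lower. At this threshold 2 of the 8 muscle and trachea markers were lower, and 4 of the 8 type II markers were higher. Over all genes 18.5% were higher and 9.40% lower at this threshold. DESeq2 called 1 glia marker and 1 muscle and trachea marker lower, and 1 type II marker higher. Over all genes it called 12% higher and 6.06% lower. Without both first replicates, 2 glia markers were higher and 3 lower, 5 muscle and trachea markers were lower, and 3 type II markers were higher, where over all genes 19.2% were higher and 16.1% lower. Of 14 hemocyte and fat body markers tested, 1 was higher and 2 were lower, 7.14% and 14.3% against 10.4% and 3.09% of all genes, both of the lower ones being fat body proteins of the larval blood. Without both first replicates 1 was higher and 8 were lower. Lsp1alpha stood at 0.624, 0.104 and 0 CPM at 5 h against 1.36, 4.6 and 14.9 CPM at 3 h. For Lsp1alpha the log2 fold change was -4.80 ± 1.04 (SE; edgeR adjusted p = 0.00715). Fbp1 stood at 1.35, 0.104 and 0.306 CPM at 5 h against 0.452, 1.79 and 61.6 CPM at 3 h. Fbp1 had a log2 fold change of -5.16 ± 1.45 (SE; edgeR adjusted p = 0.0265). The groups of Fbp1 overlapped, and its call rested on replicate 3 of 3 h: without it the log2 fold change was -0.97 (edgeR adjusted p = 0.607). Fbp1 also lost its call without replicate 2 or 3 of 5 h (edgeR adjusted p = 0.103 and 0.110).

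Growth signalling genes included both large falls and a rise. Of 28 genes that act with FOXO, REPTOR and insulin, 2 were higher and 5 lower, 7.14% and 17.9% against 10.4% and 3.09% of all genes, with a list median of -0.27. With the length trend removed 8 were lower (28.6%), against 3.89% of all genes. By DESeq2 8 were lower, where it called 6.06% of all genes lower. Without replicate 3 of 5 h, 2 were lower and 1 was higher, against 1.11% and 4.16% of all genes. The inhibitor of TORC1 scyl (FBgn0041094, 3L 11252307 to 11256172) stood at 83.4, 216 and 116 CPM in 5 h neuroblasts, against 716, 442 and 680.4 CPM in 3 h neuroblasts. It was lower in every 5 h library, with a log2 fold change of -2.15 ± 0.31 (SE; edgeR adjusted p = 0.000804). Its relative chrb (FBgn0036165, 3L 11487550 to 11499055), also an inhibitor of TORC1, stood at 102, 226 and 147 CPM in 5 h neuroblasts, against 479, 363 and 370.1 CPM in 3 h neuroblasts. For chrb the log2 fold change was -1.35 ± 0.27 (SE; edgeR adjusted p = 0.00473). The kinase Tor, which these proteins hold in check, stood at 72.3, 203 and 131 CPM in 5 h neuroblasts, against 31.5, 48.8 and 55.2 CPM in 3 h neuroblasts. Tor had a log2 fold change of 1.58 ± 0.31 (SE; edgeR adjusted p = 0.00459). In all 3 genes the 5 h and 3 h libraries did not overlap, as for 24.5% of all genes tested. The gene scyl was named by a rule that asked for no overlap.

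Enzymes that charge tRNAs were examined as a list chosen after the values were seen. Of 35, 9 were higher at 5 h and 2 lower, 25.7% and 5.71% against 10.4% and 3.09% of all genes. The list median was 0.31. Without both first replicates 18 were higher and 1 lower, where 19.2% and 16.1% of all genes were. Without replicate 3 of 5 h, 4 were higher (11.4%) and 1 lower, against 4.16% and 1.11% of all genes. With the length trend removed 8 were higher (22.9%) and 1 lower (2.86%), against 9.38% and 3.89%. GluProRS (FBgn0005674, 3R 23952136 to 23958391), which charges the tRNAs of glutamate and proline, stood at 236, 747 and 517 CPM in 5 h neuroblasts, against 83.3, 111 and 135 CPM in 3 h neuroblasts. GluProRS had a log2 fold change of 2.19 ± 0.32 (SE; edgeR adjusted p = 0.000804). MetRS stood at 185, 397 and 347 CPM at 5 h against 101, 143 and 135 CPM at 3 h. For MetRS the log2 fold change was 1.29 ± 0.22 (SE; edgeR adjusted p = 0.00234). ValRS stood at 160.1, 365 and 300.3 CPM at 5 h against 88.6, 120.1 and 137 CPM at 3 h. ValRS had a log2 fold change of 1.25 ± 0.25 (SE; edgeR adjusted p = 0.00439). TrpRS went the other way, at 61.9, 72.7 and 57 CPM at 5 h against 126, 80.2 and 91.5 CPM at 3 h. For TrpRS the log2 fold change was -0.63 ± 0.17 (SE; edgeR adjusted p = 0.0237). TrpRS lost its call without replicate 3 of 5 h (edgeR adjusted p = 0.121), replicate 1 of 3 h (0.0959) or both first replicates (0.0624). The asparagine synthetase AsnS (FBgn0270926, 3L 21173118 to 21174973), a known target of the amino acid response, stood at 32.4, 189 and 199 CPM in 5 h neuroblasts, against 9.04, 24.1 and 30.7 CPM in 3 h neuroblasts. For AsnS the log2 fold change was 2.71 ± 0.58 (SE; edgeR adjusted p = 0.00669). In the list of 18 genes of the integrated stress and unfolded protein response, AsnS was 1 of 5 higher genes (27.8%, against 10.4% of all genes; 3 with the length trend removed), and 0 were lower (2 at an unadjusted edgeR p under 0.05, 1 by DESeq2). The endoplasmic reticulum chaperone Hsc70-3 stood at 822, 1130 and 915 CPM at 5 h against 618, 615 and 724 CPM at 3 h. Hsc70-3 had a log2 fold change of 0.55 ± 0.16 (SE; edgeR adjusted p = 0.0298). Leaving out replicate 2 or 3 of 5 h, or replicate 1 or 2 of 3 h, gave edgeR adjusted p-values of 0.151, 0.083, 0.0692 and 0.101. The call of Hsc70-3 was also lost without the filter on low counts (edgeR adjusted p = 0.0566) and with the length trend removed, where its log2 fold change was 0.32 (edgeR adjusted p = 0.142).

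Protein-coding genes of the ribosome and of mitochondria had negative medians and few higher calls. Of 85 cytosolic ribosomal protein genes, 0 were higher and 2 were lower, with a list median of -0.43. At an unadjusted edgeR p under 0.05, 1 of them was higher, and by DESeq2 0 were. Of 74 nuclear genes of oxidative phosphorylation 1 was higher and 4 were lower, with a median of -0.53. The higher shares were 0% and 1.35%, against 10.4% of all genes, and the lower shares 2.35% and 5.4%, against 3.09%. At an unadjusted edgeR p under 0.05, 16 were lower in each list, where 9.40% of all genes were lower. DESeq2 called 8 lower in each list, where it called 6.06% of all genes lower. Both lists are made of short genes, and with the length trend removed their medians were -0.08 and -0.22, with 1 higher and 0 lower in each. The called genes RpLP0 and RpL13, both of the large subunit, were led by replicate 1 of 3 h. RpLP0 stood at 685, 551 and 587 CPM at 5 h against 1629, 812 and 822 CPM at 3 h. For RpLP0 the log2 fold change was -0.84 ± 0.25 (SE; edgeR adjusted p = 0.0373). Without replicate 1 of 3 h its edgeR adjusted p was 0.197. RpL13 stood at 369, 342 and 348 CPM at 5 h against 1025, 469.5 and 458 CPM at 3 h. RpL13 had a log2 fold change of -0.88 ± 0.28 (SE; edgeR adjusted p = 0.0446). Without that library the edgeR adjusted p of RpL13 was 0.258. Without replicate 2 or 3 of 5 h the adjusted p by edgeR was 0.129 and 0.129 for RpLP0, and 0.126 and 0.139 for RpL13. The summed level of the ribosomal proteins was 37982, 35760 and 35031 CPM at 5 h against 72307, 35030 and 32913 CPM at 3 h.

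Stress genes moved in both directions. Of 26 heat shock and chaperone genes, 7 were higher and 2 lower, 26.9% and 7.69% against 10.4% and 3.09% of all genes, with a list median of 0.15. The non-coding RNA Hsromega (FBgn0001234, 3R 21296127 to 21317836), which heat induces and which organises nuclear speckles, stood at 275, 330.1 and 283 CPM in 5 h neuroblasts, against 2584, 2206 and 1982 CPM in 3 h neuroblasts. The 3 libraries of 5 h lay close together and far below those of 3 h. For Hsromega the log2 fold change was -2.93 ± 0.24 (SE; edgeR adjusted p = 2.53e-06). It averaged 2350 ± 186 CPM at 1.5 h (SD, n = 3). Hsc70-2, a heat shock cognate, stood at 6.45, 18.5 and 18.3 CPM at 5 h against 0, 1.87 and 0.575 CPM at 3 h. Hsc70-2 had a log2 fold change of 4.05 ± 0.66 (SE; edgeR adjusted p = 0.00167). The detoxifying enzyme GstD1 (FBgn0001149, 3R 12367817 to 12369268) stood at 17.8, 56.4 and 51.5 CPM in 5 h neuroblasts, against 7.57, 3.66 and 4.02 CPM in 3 h neuroblasts. GstD1 had a log2 fold change of 3.06 ± 0.44 (SE; edgeR adjusted p = 0.000804). Of 20 immediate early, AP-1 and p53 genes, 3 were higher and 3 were lower, 15% each against 10.4% and 3.09% of all genes. Without replicate 3 of 5 h 0 were called in either direction, against 4.16% and 1.11% of all genes. The Fos homologue kay stood at 51.7, 73.5 and 139.5 CPM at 5 h against 27.6, 34.4 and 39.5 CPM at 3 h. For kay the log2 fold change was 1.38 ± 0.33 (SE; edgeR adjusted p = 0.0116). Without replicate 3 of 5 h its edgeR adjusted p was 0.0911. The JNK phosphatase puc stood at 12.6, 33 and 71 CPM at 5 h against 17.4, 12.3 and 13.3 CPM at 3 h. puc had a log2 fold change of 1.44 ± 0.42 (SE; edgeR adjusted p = 0.0299). Its groups overlapped, and without replicate 3 of 5 h its log2 fold change was 0.68 (edgeR adjusted p = 0.283). It also missed the threshold without replicate 2 of 5 h (edgeR adjusted p = 0.0509), replicate 2 of 3 h (0.0945) or replicate 3 of 3 h (0.0805).

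**Figure D4:**
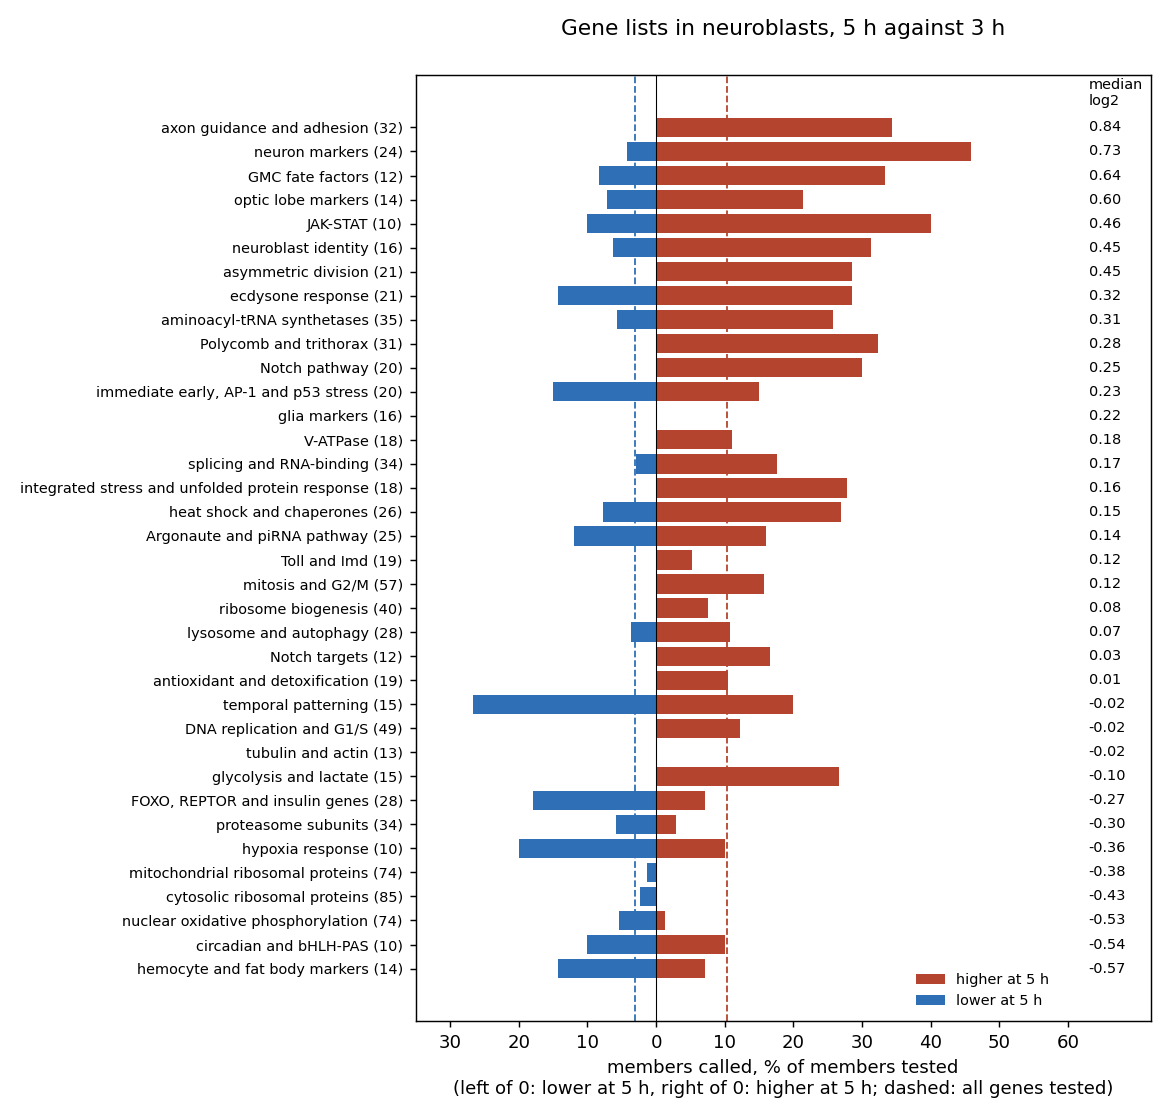
Bars give the share of each list's tested members (their number in brackets) called higher (red, right) or lower (blue, left) at 5 h, for lists of at least 10 tested genes ordered by their median log2 fold change, printed at the right. Dashed lines mark the shares over all genes tested, 10.4% and 3.09%; axon guidance stands at the top with 0.84 and neuron markers next with 0.73.

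Chromatin genes that were called were higher at 5 h. Of 31 Polycomb and trithorax genes, 10 were higher (32.3%, against 10.4% of all genes) and 0 lower (1 at an unadjusted edgeR p under 0.05, 1 by DESeq2), with a list median of 0.28, and 8 were higher with the length trend removed (25.8%, against 9.38% of all genes). The remodelling subunit mor (FBgn0002783, 3R 15968134 to 15972913) stood at 116, 260.2 and 164 CPM in 5 h neuroblasts, against 62.4, 70.8 and 82.7 CPM in 3 h neuroblasts. For mor the log2 fold change was 1.32 ± 0.24 (SE; edgeR adjusted p = 0.00315). The Polycomb proteins Sfmbt and Psc were higher too. Sfmbt stood at 365, 524 and 437 CPM at 5 h against 141, 225 and 248 CPM at 3 h. Sfmbt had a log2 fold change of 1.11 ± 0.20 (SE; edgeR adjusted p = 0.00334). Psc stood at 97.5, 146 and 130.1 CPM at 5 h against 39.3, 71.8 and 67.2 CPM at 3 h. For Psc the log2 fold change was 1.07 ± 0.24 (SE; edgeR adjusted p = 0.00809). Of 25 genes of the Argonaute and piRNA pathway, 4 were higher and 3 lower, 16% and 12% against 10.4% and 3.09% of all genes. The microRNA processing enzyme drosha stood at 97.2, 124 and 117 CPM at 5 h against 33.8, 58.5 and 64.3 CPM at 3 h. drosha had a log2 fold change of 1.11 ± 0.21 (SE; edgeR adjusted p = 0.0038). The H3K9 methyltransferase egg stood at 136, 203 and 158 CPM at 5 h against 43.4, 85 and 87.9 CPM at 3 h. For egg the log2 fold change was 1.20 ± 0.26 (SE; edgeR adjusted p = 0.00675).

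A minority of cell cycle genes were called higher. Of 57 mitosis genes, 9 were higher (15.8%, against 10.4% of all genes) and 0 lower (4 at an unadjusted edgeR p under 0.05, 3 by DESeq2), with a list median of 0.12. The central spindle kinesin Klp3A (FBgn0011606, X 2599158 to 2604052) stood at 387, 838 and 575 CPM in 5 h neuroblasts, against 162, 209.8 and 173 CPM in 3 h neuroblasts. For Klp3A the log2 fold change was 1.72 ± 0.23 (SE; edgeR adjusted p = 0.000514). The cytokinesis kinase sti stood at 902, 1350 and 1101 CPM at 5 h against 373, 505 and 503 CPM at 3 h. sti had a log2 fold change of 1.28 ± 0.20 (SE; edgeR adjusted p = 0.00136). The microtubule polymerase msps stood at 1223, 1479 and 1408 CPM at 5 h against 499, 708 and 763 CPM at 3 h. For msps the log2 fold change was 1.06 ± 0.19 (SE; edgeR adjusted p = 0.00246). Of 49 genes for G1/S and DNA synthesis, 6 were higher (12.2%) and 0 lower (4 at an unadjusted edgeR p under 0.05, 5 by DESeq2), with a list median of -0.02, a share close to the 10.4% of all genes. Gnf1, the large subunit of the clamp loader, stood at 228, 371 and 329 CPM at 5 h against 105, 158 and 171 CPM at 3 h. Gnf1 had a log2 fold change of 1.10 ± 0.21 (SE; edgeR adjusted p = 0.00437). The origin kinase Cdc7 stood at 125, 152 and 167 CPM at 5 h against 89.4, 76 and 101 CPM at 3 h. For Cdc7 the log2 fold change was 0.74 ± 0.16 (SE; edgeR adjusted p = 0.00718). The Cdc25 phosphatase stg, which triggers mitosis, stood at 358, 689 and 745 CPM at 5 h against 533, 334 and 452 CPM at 3 h and was not called. stg had a log2 fold change of 0.44 ± 0.23 (SE; edgeR adjusted p = 0.222). Without replicate 1 of 5 h its edgeR adjusted p was 0.0066.

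Among metabolic and other genes, 4 of 15 glycolysis and lactate genes were higher (26.7%, against 10.4% of all genes) and 0 lower (1 at an unadjusted edgeR p under 0.05, 0 by DESeq2), with a list median of -0.10. Pdk, the kinase that shuts pyruvate dehydrogenase, stood at 66.9, 111 and 119 CPM in 5 h neuroblasts, against 41.9, 34.7 and 35.8 CPM in 3 h neuroblasts. For Pdk the log2 fold change was 1.40 ± 0.19 (SE; edgeR adjusted p = 0.000514). The glycolytic enzyme Pfk stood at 30.5, 79.9 and 65.3 CPM at 5 h against 21.9, 22.1 and 33.1 CPM at 3 h, and the groups overlapped. Pfk had a log2 fold change of 1.19 ± 0.28 (SE; edgeR adjusted p = 0.0105). Pfk lost its call without replicate 2 of 5 h (edgeR adjusted p = 0.0651). Of 18 V-ATPase genes 2 were higher, 11.1%, a share close to the 10.4% of all genes. The accessory subunit VhaAC45 stood at 96.4, 119 and 137 CPM at 5 h against 67.1, 64.8 and 73.5 CPM at 3 h. For VhaAC45 the log2 fold change was 0.78 ± 0.14 (SE; edgeR adjusted p = 0.00334). The bZIP factors of the circadian clock moved apart. Pdp1 stood at 5.83, 11.4 and 13 CPM at 5 h against 47.7, 41 and 29.2 CPM at 3 h. Pdp1 had a log2 fold change of -1.96 ± 0.29 (SE; edgeR adjusted p = 0.000933). Its partner in the clock, vri, stood at 137, 286 and 429 CPM at 5 h against 63.2, 58.5 and 111 CPM at 3 h. For vri the log2 fold change was 1.87 ± 0.37 (SE; edgeR adjusted p = 0.00465). The laminin chain LanA stood at 21.9, 39.7 and 56.1 CPM at 5 h against 3.05, 5.77 and 8.69 CPM at 3 h. LanA had a log2 fold change of 2.73 ± 0.45 (SE; edgeR adjusted p = 0.00177).

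Several of the largest falls were of RNA regulators and of the transgene's gene. Dcr-2 (FBgn0034246, 2R 17574979 to 17581525), the RNA interference enzyme, which the labels give as a transgene (UAS-dcr2) for all samples, stood at 176, 385 and 328 CPM in 5 h neuroblasts, against 2867, 4274 and 5905 CPM in 3 h neuroblasts. The 5 h libraries held less than the lowest 3 h library by a wide margin, with a log2 fold change of -3.88 ± 0.32 (SE; edgeR adjusted p = 2.53e-06). It averaged 4274 ± 387 CPM in neuroblasts of 1.5 h (SD, n = 3). The counts do not part the transgene's transcript from that of the fly's own gene. The fall therefore cannot be told apart from a difference between the ages in the transgene or the genotype of the flies, and the GMC values below show it too. The RNA-binding protein Unr (FBgn0263352, 3L 8432322 to 8442381), which acts in dosage compensation, stood at 62, 152 and 123 CPM in 5 h neuroblasts, against 1745, 1593 and 1557 CPM in 3 h neuroblasts. Unr had a log2 fold change of -3.86 ± 0.31 (SE; edgeR adjusted p = 2.52e-06). It averaged 1523 ± 153 CPM in neuroblasts of 1.5 h (SD, n = 3). The long non-coding RNA CR43283, also named cherub, stood at 4009, 11200 and 7279 CPM in 5 h neuroblasts, against 62909, 39823 and 34304 CPM in 3 h neuroblasts. CR43283 had a log2 fold change of -2.61 ± 0.38 (SE; edgeR adjusted p = 0.000804). The TBP-related factor Trf2 (FBgn0261793, X 8409272 to 8433011) stood at 192, 364 and 289.7 CPM in 5 h neuroblasts, against 1062, 1216 and 1152 CPM in 3 h neuroblasts. For Trf2 the log2 fold change was -2.02 ± 0.29 (SE; edgeR adjusted p = 0.000804). The splicing factor ps stood at 39.4, 78.8 and 56.3 CPM at 5 h against 158, 175 and 152 CPM at 3 h. ps had a log2 fold change of -1.47 ± 0.24 (SE; edgeR adjusted p = 0.00167). CG31817, of no stated function, stood at 8.32, 2.72 and 3.06 CPM at 5 h against 42.6, 123 and 98.3 CPM at 3 h. For CG31817 the log2 fold change was -4.23 ± 0.50 (SE; edgeR adjusted p = 0.000218). The muscle-type kinase gene Strn-Mlck stood at 21.3, 7.73 and 6.21 CPM at 5 h against 74.3, 135 and 109 CPM at 3 h. Strn-Mlck had a log2 fold change of -3.17 ± 0.37 (SE; edgeR adjusted p = 0.000218). The eye colour gene w, which marks transgene insertions, stood at 69.9, 113 and 106 CPM at 5 h against 77.6, 162 and 154 CPM at 3 h, and the groups overlapped. For w the log2 fold change was -0.45 ± 0.24 (SE; edgeR adjusted p = 0.252). Without replicate 1 of 3 h its edgeR adjusted p was 0.0354.

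GMCs of the same ages allow the same contrast on other libraries, read on the same flow cells, so that the comparison of the changes between cell types lies within the same runs. In GMCs, 1872 genes (17.2%) were higher and 1402 (12.8%) lower at 5 h. Of the 1132 genes higher in 5 h neuroblasts, 677 (59.8% of them, and 36.2% of the GMC list) were also higher in 5 h GMCs. Of the 337 lower genes, 192 (57.0%, and 13.7% of the GMC list) were also lower. Another 26 of the genes higher in neuroblasts were lower in GMCs, and 0 of the lower genes were higher there. Among genes shared by both cell types were Eip75B, with 261 and 529 CPM in 5 h GMCs, against 60.9 and 102 CPM in 3 h GMCs, and Hr4, with 821 and 1184 CPM in 5 h GMCs, against 87.6 and 79.5 CPM in 3 h GMCs. The changes of Eip75B (2.44 in neuroblasts, 2.27 in GMCs) and Hr4 (2.34 and 3.59) were not distinguished by the test of the difference (edgeR adjusted p = 0.901 and 0.17). CR40469 rose in GMCs too, with 823 and 541 CPM in 5 h GMCs, against 1.88 and 0.465 CPM in 3 h GMCs. Shared calls carry the shared flow cells, so a change common to both cell types cannot be told apart from a difference between the runs.

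The difference between the changes of neuroblasts and GMCs was called for 442 genes (4.05% of the genes tested), 258 with a higher and 184 with a lower value in neuroblasts, and for 127 of the 1132 higher and 16 of the 337 lower neuroblast genes. This split depended on scaling: with median-ratio scaling 251 were higher and 341 lower, with DESeq2 486 and 708, and with the length trend removed 321 and 490. The temporal factor chinmo fell in neuroblasts, whereas GMCs held 584 and 1028 CPM in 5 h GMCs, against 942 and 739.8 CPM in 3 h GMCs (log2 fold change -0.06), a difference of -1.94 (edgeR adjusted p = 0.0225). The adaptor mira was 0.65 higher in neuroblasts and -0.77 in GMCs, a difference of 1.42 (edgeR adjusted p = 0.0123). The vesicle protein Syt4 differed by 5.996 (edgeR adjusted p = 0.0138), with 10.2 and 30.9 CPM in 5 h GMCs, against 29.9 and 67.5 CPM in 3 h GMCs. Of the 24 neuron markers, 2 were higher and 7 lower in 5 h GMCs, and the difference was called for 9. Dcr-2 differed by 3.09 (edgeR adjusted p = 0.00383), with 151 and 178 CPM in 5 h GMCs, against 18203 and 23014 CPM in 3 h GMCs. The gene w differed by 3.21 (edgeR adjusted p = 0.00116), with 34.7 and 47.1 CPM in 5 h GMCs, against 557 and 474 CPM in 3 h GMCs. GMC groups hold 2 libraries each, and a fit of the 4 groups alone called 15 genes.

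**Figure D5:**
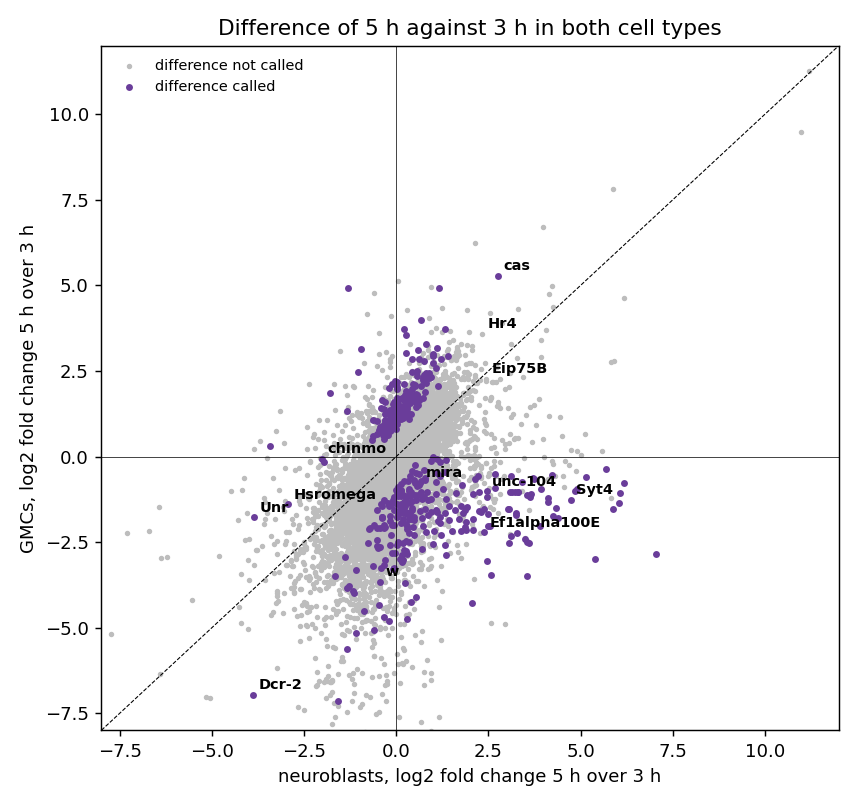
Each point is a gene, with the log2 fold change of 5 h over 3 h in neuroblasts on the horizontal axis and in GMCs on the vertical axis; the dashed line marks equal change and purple points are the 442 genes with a called difference. Eip75B and Hr4 lie high in both, chinmo and Dcr-2 off the line; 7 genes lie outside the axes.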

How the data were processed

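Poly(A) RNA of sorted cells was sequenced after oligo(dT) priming and tagmentation, per the labels' protocols, and the index carried random octamers to tag molecules. The sources do not state their use in counting. The deposited counts are raw whole reads per gene for 16364 genes in each of 16 libraries. Per the submitters' processing notes the tools, without roles, were HTSeq 0.6.1, TopHat2 2.1.1, DESeq2 1.12.4, BWA 0.7.12 and bedtools 2.26.0. The sources used here do not state the genome build or strand setting. The authors' deposited comparison tables served to take gene symbols, and their mean signal over libraries (size-factor scaled counts) was not used in a test. Positions come from the Ensembl 115 annotation of genome release 6, in which 16208 genes were found, 16086 with the same start and end. The 5 summary entries per library stayed out; reads in no gene took 11.8% to 17.8% in the 6 libraries.

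A filter (filterByExpr, minimum count 10 and total 15) removed 5451 genes and kept 10913. Their counts were scaled by TMM and fitted in edgeR 4.0.16 (R 4.3.3, limma 3.58.1) by quasi-likelihood, with the 16 libraries in 6 groups and a common dispersion of 0.0782. P-values are two-sided and Benjamini-Hochberg adjusted over all genes tested. For a single gene, an exact permutation test of 3 against 3 could not go below p = 0.1. The test was also run on simulated counts with 200 changed genes and the same dispersion for every gene. These counts held no outlying library and no length trend, so they do not bear on the effect of either. Named genes were, in each direction, the 12 called genes of largest change with at least 20 CPM and no overlap, up to 3 members of each of the gene lists, and a fixed set of neuroblast genes; 84 are given, 9 of them (Hr39, Blimp-1, Sox14, Hr3, ftz-f1, GluProRS, ValRS, MetRS and TrpRS) singled out after their values were seen. The libraries, lists and genes were chosen with earlier results of these data known. The alternatives tried were no filter, DESeq2 1.42.0, median-ratio scaling, a replicate block, fits of fewer libraries, other scaling, a length trend (lowess span 0.3) removed, and each library left out.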

Additional observations from a re-analysis of the deposited data

Results flagged for a closer look

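Each of the following genes changed by a different amount in neuroblasts than in GMCs between 5 h and 3 h, by the test of that difference over all genes (edgeR, adjusted p under 0.05); the value is the change in neuroblasts minus the change in GMCs on the log2 scale. The flow cells were shared within each age.

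Values were positive for robo3 (7.40), Syt4 (5.996), Gad1 (5.93), Ef1alpha100E (4.59), unc-104 (3.47), w (3.21), Dcr-2 (3.09), puc (2.88), Pfk (1.76), pros (1.70), VhaAC45 (1.47) and mira (1.42). Replicate 3 of 5 h neuroblasts was the highest library of its group for robo3, Syt4, Gad1, Ef1alpha100E, unc-104 and puc. The homeodomain gene pros stood at 1063 and 1310 CPM in 5 h GMCs, against 2111 and 2760 CPM in 3 h GMCs, and was not called in neuroblasts.

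Values were negative for cas (-2.53), E(spl)mgamma-HLH (-2.26), Unr (-2.09), chinmo (-1.94), Pdp1 (-1.80), D (-1.76), elav (-1.63), Hsromega (-1.54), spdo (-1.50), wor (-1.16) and Cdc7 (-0.97). The temporal factor cas was far higher in GMCs, with 3233 and 3095 CPM in 5 h GMCs, against 77 and 85.4 CPM in 3 h GMCs. The gene elav stood at 5297 and 5135 CPM in 5 h GMCs, against 924 and 1073 CPM in 3 h GMCs, and its neuroblast call was lost without any of 4 libraries, as given above.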

How the results depend on the processing

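The count of 1469 genes in neuroblasts stayed within 1.5 times under median-ratio scaling, DESeq2, no filter on low counts, the replicate block, scaling without CR43283 and Dcr-2, and removal of the length trend. It was 28 in the fit of the 2 groups alone, 578 in the fit of the 9 neuroblast libraries, 3795 without both first replicates, and 575 to 3588 with 1 library left out. The fit of the 2 groups alone has fewer libraries to estimate the spread. The cause of its lower count, and of the other shifts, was not tested. Higher genes made up 77.1% of the calls, 66.5% in DESeq2 (1311 higher, 661 lower), 56.4% without replicate 1 of 5 h and 39.3% in the fit of the 2 groups alone. The 442 called differences between the cell types became 1194 in DESeq2, 676 under the block, 15 in the fit of the 4 groups alone, 811 with the length trend removed, 828 without both first replicates, and 38 to 713 with 1 library left out, 38 being without replicate 1 of 5 h GMCs.

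The replicate numbers paired the libraries only in part: deviations of libraries with the same number correlated at 0.14, -0.12 and 0.26 for replicates 1, 2 and 3. Replicates 1 and 3 of 5 h correlated best with the same number of 3 h, and replicate 2 of 5 h with replicate 3 of 3 h (0.15). With the numbers as a block, 1873 genes were called, 1433 higher and 440 lower.

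Of the 84 named genes, wor (0.04) turned to -0.024 under median-ratio scaling and in DESeq2, -0.12 in the fit of the 2 groups alone, and below 0 in that of the 9 neuroblast libraries (-0.00227). With 1 library left out it ran from -0.11 to 0.17. E(spl)mgamma-HLH (-0.04) turned to 0.052 under the block, 0.32 with the length trend removed and 0.60 without both first replicates. With 1 library left out it ran from -0.33 to 0.45. Neither was called in any of these. Between 6899670 and 21207182 counts per library limit what can be seen of genes of a few CPM, such as Gad1 or robo3.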
